A study of Rattus norvegicus with 421 samples.

Results

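Cyp26a1 and Rbp4 stand at opposite ends of vitamin A handling, and their mRNA was followed here in the livers of rats given 30 compounds. Both were taken by gene symbol, and each had 1 probe set on the array (1387583_at for Cyp26a1 and 1371762_at for Rbp4), so they are 2 of 15866 probe sets and 2 of the 10411 genes that a probe set with a single symbol named. The data comprised 421 Affymetrix RAE230A arrays of liver RNA, 1 array per animal, with 293 arrays of treated and 128 arrays of vehicle animals in 98 treated and 38 vehicle groups. Values were RMA values, that is, background-corrected, quantile-normalised and summarised probe signals on the log2 scale, so a difference of 1 is a doubling of the signal. For the arrays the study took 3 of the 5 animals of a treatment group, those with some liver change on histopathology. The changes and the spread given here are therefore those of chosen animals. Some vehicle groups held 4 or 6 arrays.

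All animals were male Wistar Hanover rats of the strain labelled Crl:WI[Gl/BRL/Han]IGS BR, aged 8 to 10 weeks, dosed by gavage. The groups that carry the results were MDA (Methylendianiline, an aromatic diamine, 50 mg/kg), CPA (cyproterone acetate, a steroidal antiandrogen, 100 mg/kg) and DCB (1,4-dichlorobenzene, 300 mg/kg), each at 1, 3, 7 and 14 days and each set against the same corn oil animals, labelled CO_1A. Aap (acetaminophen, the analgesic, 4250 mg/kg) was sampled at 6, 12, 24 and 48 hours against saline animals, labelled Sal_1J. Further groups named below were 3-MC (3-methylcholanthrene, 25 mg/kg, corn oil CO_1M), CIDB (C.I. Direct Black, a dye, 146 mg/kg, corn oil CO_1C), DHEA (dehydroepiandrosterone, 600 mg/kg) and AA (acetamide, 3000 mg/kg), both in carboxymethylcellulose CMC_1D, ETH (ethionine, 200 mg/kg) and DES (diethylstilbestrol, 10 mg/kg), both in CMC_1H, PB (phenobarbital, 80 mg/kg, CMC_1B) and Nif (nifedipine, 3 mg/kg, CMC_1O). Wy (Wy-14643, 60 mg/kg, CMC_1D) is named at the end. Most groups had 3 arrays, and 1 had 2 (DES at day 1). Doses differed between compounds, so levels are set side by side and no compound is ranked by potency.

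The liver takes up dietary retinol, stores it as retinyl esters in its stellate cells and releases it into the blood. RBP4, made by hepatocytes, is the plasma carrier of retinol and circulates bound to transthyretin. In cells, dehydrogenases oxidise retinol to retinal and then to retinoic acid, the hormone-like form, which binds the retinoic acid receptors and their RXR partners on DNA. CYP26A1 is a cytochrome P450 that hydroxylates retinoic acid and so marks it for removal, and its gene is a classic target of the retinoic acid receptors, which bind repeats of a short sequence.

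The 150 bases before the annotated start of each gene (RefSeq, rat build GRCr8) are shown because the 2 genes differ in a repeat of the kind that retinoic acid receptors are known to bind. Capitals mark that repeat in Cyp26a1 and the sequence TATAAA in both genes. The Cyp26a1 window is chr1:244883672-244883821 on the plus strand, and the Rbp4 window is chr1:245313552-245313701 on the minus strand.
Cyp26a1: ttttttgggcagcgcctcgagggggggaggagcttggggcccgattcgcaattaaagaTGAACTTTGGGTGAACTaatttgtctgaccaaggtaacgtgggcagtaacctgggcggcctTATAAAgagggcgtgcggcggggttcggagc
Rbp4: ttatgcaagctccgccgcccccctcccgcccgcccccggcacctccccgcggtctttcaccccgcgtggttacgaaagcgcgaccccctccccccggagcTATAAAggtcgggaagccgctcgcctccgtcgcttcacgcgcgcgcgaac
The search covered both strands of 27457 rat promoters, from 250 bases before to 50 bases after the start. It asked for a pair of hexamers in the same direction with 5 bases between. A hexamer could be AGTTCA, the common form AGGTCA, the form GGTTCA, or finally GGGTCA. In Cyp26a1 the repeat of 17 bases began 92 bases before the start and reads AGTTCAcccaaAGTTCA on the other strand. A repeat of these hexamers was present in 103 promoters (0.375%), and the exact form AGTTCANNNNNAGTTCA in 3 (0.0109%). Rbp4 held none. Among the 49 promoters found for the other retinoid genes, 1 held such a repeat, that of Rarb, the receptor gene long known to respond to retinoic acid. The same hexamers with 2 bases between (0.160% of promoters) or 1 base between (0.251%) were in neither window. TATAAA, found in 14.3% of promoters, began 31 bases before the start of Cyp26a1 and 50 bases before that of Rbp4. A match of letters is a description of the sequence and not a measured site. The exact form is the Cyp26a1 repeat itself, and the hexamers are of a kind known for these receptors. The matches in Cyp26a1 and Rarb are therefore not an independent result.

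In vehicle livers both genes were steady. Over the 128 vehicle arrays the lowest, median and highest Cyp26a1 values were 5.79, 6.11 and 6.71 (SD 0.16), and those of Rbp4 were 13.60, 13.82 and 14.00 (SD 0.0713). Rbp4 was among the brightest probe sets, with only 38 of 15866 brighter on average, and signals near the top of an array's range may respond less than the mRNA does. The vehicle signal of Cyp26a1 was low. Skeletal muscle genes, which hepatocytes do not use, averaged 4.35 to 7.30 by gene in the same vehicle livers, so the Cyp26a1 signal without compound lay in the range of genes not used, and folds against it are folds of signal.

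Neither the vehicle nor the time of handling moved them detectably. Taking each vehicle code as 1 replicate, corn oil codes averaged 6.06 ± 0.0606 (SD, n = 3) and carboxymethylcellulose codes 6.15 ± 0.0764 (SD, n = 6) for Cyp26a1, a difference of -0.09 (exact two-sided permutation test, p = 0.131, the smallest possible p being 0.0119). For Rbp4 the corn oil and carboxymethylcellulose codes averaged 13.81 and 13.82 (same exact test, p = 0.821). Within vehicles, day 14 minus day 1 was -0.05 for Cyp26a1 and 0.01 for Rbp4 (limma, adjusted p = 0.875 and 0.899).

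Cyp26a1 rose in the livers of 3 compounds, MDA, CPA and Aap, and was called lower in none. Changes were tested with limma, with p-values adjusted over all 15866 probe sets by Benjamini-Hochberg, and a change was called at an adjusted p below 0.05 together with a fold of at least 1.5. Cyp26a1 was called higher in 6 of 98 treated groups and lower in 0, while over all probe sets and groups 1.02% were called higher and 0.731% lower. In those 6 groups the share of all probe sets called higher was 0.366% (MDA day 7), 0.744% (MDA day 14), 1.12% (CPA day 3), 0.517% (CPA day 7), 0.548% (CPA day 14) and 2.75% (Aap 6 hours). At an unadjusted p below 0.05 it was higher in 9 groups and lower in 1. Rbp4 was called in 0 of 98 groups, since no change reached 1.5-fold, and its adjusted p was below 0.05 with a higher level in 6 groups and a lower level in 3 (unadjusted, 10 and 7). On adjusted p alone, 3.74% of all probe sets were higher and 3.35% lower over the 98 groups.

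MDA gave the largest change of Cyp26a1 among the 98 groups, and it appeared between day 3 and day 7. At day 1 the MDA livers measured 6.14, 6.01 and 6.28, against 6.06, 6.06 and 6.13 in corn oil livers. At day 3 they measured 6.39, 6.22 and 6.52, against 6.03, 6.06 and 6.11, so all MDA livers already lay above their controls, but the change of 0.31 ± 0.23 (SE) did not pass (adjusted p = 0.682). The SE of 0.23 on Cyp26a1 is shared by all groups of 3 against 3, because the fit pools the spread within groups.

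At day 7 the 3 MDA livers measured 11.76, 7.17 and 8.55, against 5.99, 5.97 and 6.16 in corn oil livers. No MDA liver overlapped the controls, yet the MDA livers covered a wide range among themselves (SD 2.36). At day 14 they measured 10.72, 10.24 and 9.09, against 5.98, 5.98 and 6.00, and all 3 were high. The change was 3.12 on the log2 scale at day 7 (8.68-fold, adjusted p = 3.42e-28) and 4.03 at day 14 (16.4-fold, adjusted p = 1.03e-42). Of all 15866 probe sets, Cyp26a1 had the highest change at both days. With the spread estimated from the compared groups alone, day 7 no longer passed (adjusted p = 0.509), and without animal 1 of each treated group its change was 1.82.

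The differences between days were tested themselves. Day 7 exceeded day 3 by 2.81 ± 0.33 (SE, adjusted p = 1.00e-11), and day 14 exceeded day 1 by 3.97 ± 0.33 (adjusted p = 1.92e-23). Probe sets called in these 2 differences made up 0.0189% and 0.447% of the array. Without animal 1 of each treated group the step between day 3 and day 7 was 1.51 (adjusted p = 4.22e-05). Day 14 minus day 7 was 0.91 (95% interval 0.27 to 1.56) and did not pass (adjusted p = 0.9997), whereas without animal 1 of each treated group it was 1.86 (adjusted p = 1.22e-08). The first step did not pass when the compared groups alone set the spread (adjusted p = 0.9997).

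**Figure D1:**
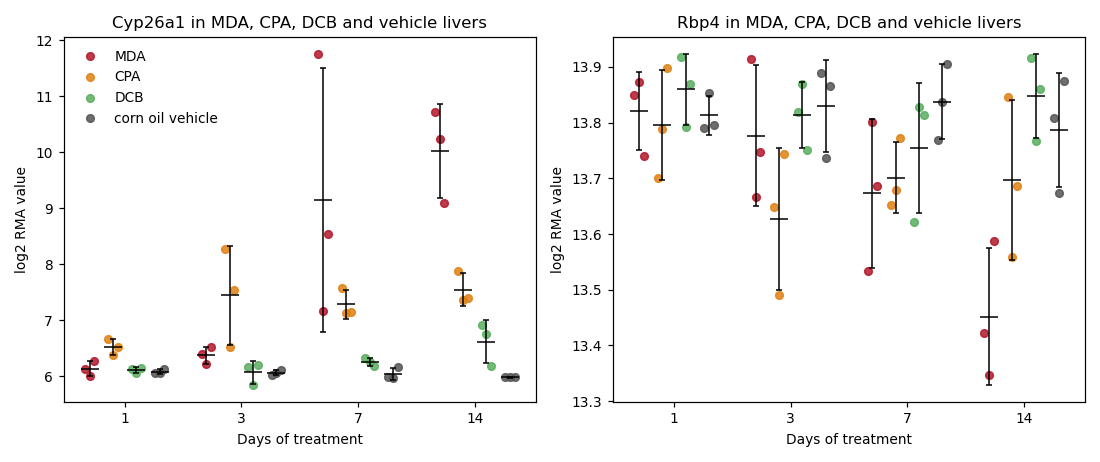
RMA values on the log2 scale of Cyp26a1 (left) and Rbp4 (right) in single livers at 1, 3, 7 and 14 days under MDA, CPA, DCB and corn oil, 1 point per animal, with bars giving mean ± SD. The MDA livers reach 11.76 for Cyp26a1 at day 7 and lie between 9.09 and 10.72 at day 14, while the corn oil livers stay between 5.97 and 6.16. Rbp4 of the MDA livers lies below the corn oil livers at day 14.

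CPA raised Cyp26a1 less and earlier than MDA, and kept it there. At day 1 CPA livers measured 6.67, 6.38 and 6.53, above all corn oil livers, with a change of 0.44 that did not pass (adjusted p = 0.222). At day 3 they measured 8.27, 6.52 and 7.55, at day 7 they measured 7.58, 7.13 and 7.15, and at day 14 they measured 7.89, 7.36 and 7.40, all above every corn oil liver of the same day. The changes were 1.38 at day 3 (2.60-fold, adjusted p = 1.10e-06), 1.25 at day 7 (2.37-fold, adjusted p = 2.71e-05) and 1.56 at day 14 (2.95-fold, adjusted p = 3.19e-08). With the compared groups alone setting the spread, day 3 no longer passed (adjusted p = 0.0507). Day 14 exceeded day 1 by 1.12 (adjusted p = 0.0366, with 1.37% of probe sets called in this difference). This difference no longer passed without treated animal 3 (1.20, adjusted p = 0.124) or without any 1 of the 3 corn oil animals (1.10 to 1.13).

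Because both compounds were set against the same corn oil animals, the treated groups were compared directly. At day 3 the level under MDA was lower than under CPA by 1.07 (difference -1.07, 95% interval -1.52 to -0.61, adjusted p = 0.000376), and at days 7 and 14 it was higher, by 1.87 (adjusted p = 2.15e-11) and 2.47 (adjusted p = 7.01e-19). Of all probe sets, 2.17%, 2.30% and 2.38% were called in these 3 direct comparisons. Without animal 1 of each treated group the differences were -0.66 at day 3 and 0.72 at day 7. At day 1 the difference of -0.38 did not pass (95% interval -0.84 to 0.07, adjusted p = 0.350). The differences at days 3 and 7 did not pass with the compared groups alone setting the spread (adjusted p = 0.142 and 0.459).

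DCB, given in the same corn oil, left Cyp26a1 close to its controls. At day 14 DCB livers measured 6.91, 6.76 and 6.19, against 5.98, 5.98 and 6.00 in corn oil livers, and the change of 0.63 missed the threshold (adjusted p = 0.338). At days 1, 3 and 7 the DCB livers ranged between 5.84 and 6.33. MDA livers exceeded DCB livers by 2.90 at day 7 (adjusted p = 8.60e-25) and by 3.40 at day 14 (adjusted p = 1.36e-32), with 0.693% and 1.65% of probe sets called. Without animal 1 of each treated group the day 7 difference was 1.63. The day 7 difference was lost when the compared groups alone set the spread (adjusted p = 0.417).

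Acetaminophen raised Cyp26a1 at the first time point and at no later one. At 6 hours Aap livers measured 8.10, 7.00 and 7.05, against 5.93, 6.10 and 6.15 in saline livers, a change of 1.32 (2.50-fold, adjusted p = 1.01e-06). At 12 hours Aap livers measured 6.03, 6.21 and 5.90, against 6.14, 6.36 and 6.08 in saline livers, and the groups overlapped. At 24 hours the values overlapped too, and at 48 hours the Aap livers measured 5.85, 5.78 and 5.76, below the saline livers at 6.28, 6.24 and 6.05, with a change of -0.39 that did not pass (adjusted p = 0.161). The change at 48 hours minus that at 6 hours was -1.72 (adjusted p = 6.37e-06, and 12.4% of probe sets were called in this difference).

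Transcripts of skeletal muscle were high in 1 of the 3 Aap livers at 6 hours. The mean of 11 muscle genes ranged between 5.74 and 9.94 in Aap livers, against 5.71 to 5.89 in saline livers. Of the 11 genes, 10 were called higher, where 2.75% of all probe sets were, against 0 of 11 without that liver. The liver with the high muscle signal measured 7.05 for Cyp26a1, and without it the Cyp26a1 change was as large (1.49). The 11 hepatocyte genes were no lower in Aap livers, with a mean between 14.00 and 14.06 in Aap livers and between 13.89 and 13.94 in saline livers.

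**Figure D2:**
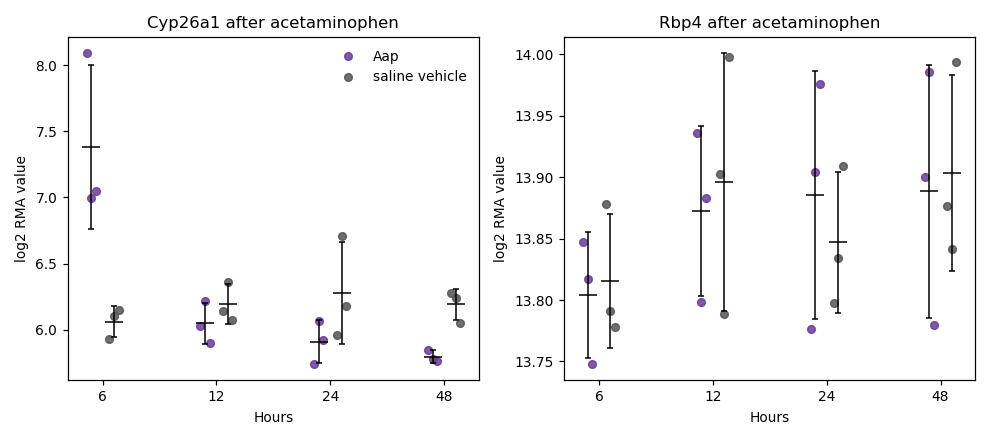
RMA values on the log2 scale of Cyp26a1 (left) and Rbp4 (right) at 6, 12, 24 and 48 hours after Aap or saline, 1 point per animal, with bars giving mean ± SD and a separate vertical scale in each panel. Cyp26a1 stands at 7.00 to 8.10 in Aap livers at 6 hours only, and Rbp4 of Aap and saline livers overlaps at every time.

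The other 92 treated groups had Cyp26a1 changes between -0.47 and 0.63, none of them called. Next to DCB at day 14, the largest was 3-MC at day 3, where 3-MC livers measured 6.60, 6.73 and 6.67, against 6.06, 5.95 and 6.12 in corn oil livers (change 0.62, adjusted p = 0.314). PB livers at day 14 measured 6.89, 6.79 and 6.38, against 6.15, 6.27 and 6.15 in vehicle livers (change 0.49, adjusted p = 0.300). These groups did not overlap their controls, and neither change passed. MDA livers at day 7 enlarge the pooled spread of this probe set: with all MDA arrays left out of the fit, a setting chosen after the values were seen, the SE was 0.16 in place of 0.23, and 3-MC at day 3 (adjusted p = 0.0187) and DCB at day 14 (adjusted p = 0.0274) were called as well.

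The lowest change was that of ETH at day 3, where ETH livers measured 5.92, 5.91 and 5.73, against 6.16, 6.27, 6.54 and 6.31 in vehicle livers (change -0.47, adjusted p = 0.0758). DHEA livers lay below their controls at days 1, 7 and 14 and overlapped them at day 3, with differences between -0.41 and -0.14, none of which passed. Since the signal without compound was close to that of genes not used, a fall of Cyp26a1 had little room to show on this scale. All treated livers lay above all vehicle livers in 15 of 98 groups, the 6 called ones included, and below in 7, where all probe sets gave 9.46% above and 9.76% below over the same groups.

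**Figure D3:**
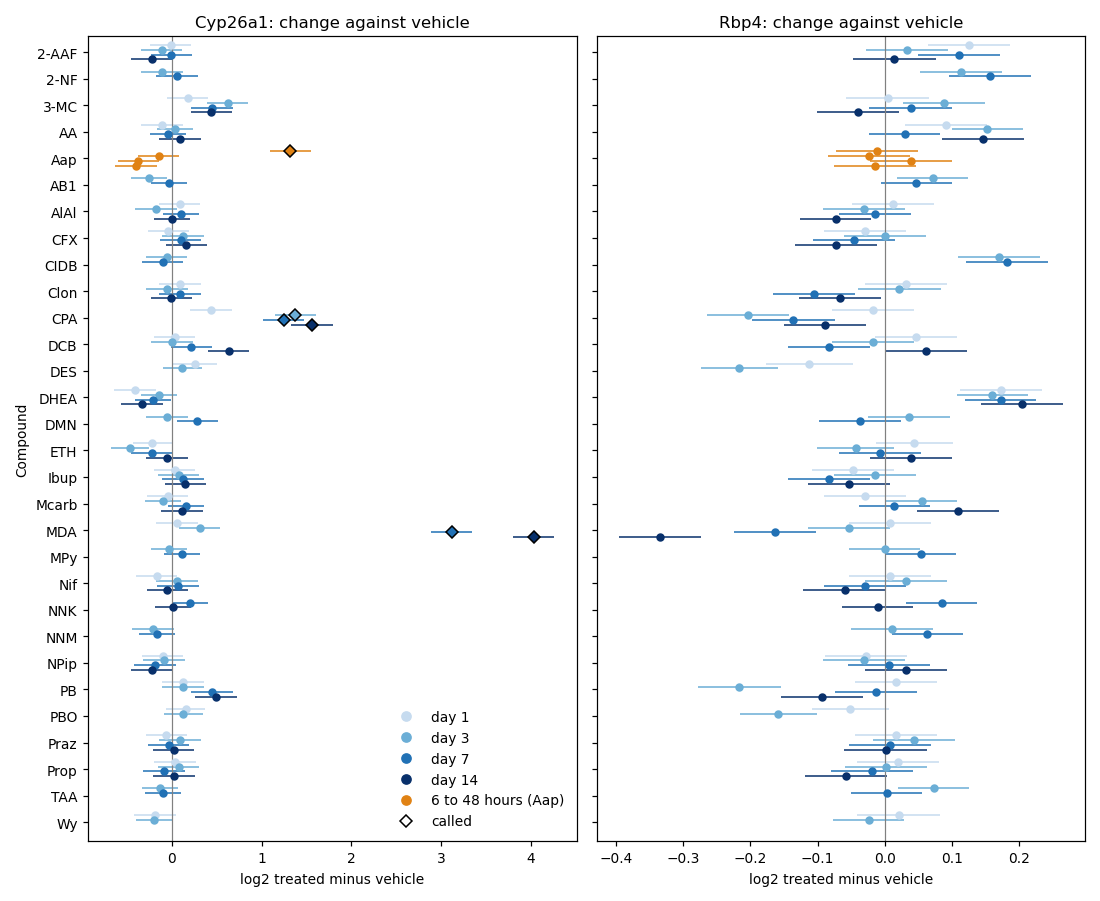
Change against vehicle (log2, ± SE from the pooled fit) of Cyp26a1 and Rbp4 in all 98 treated groups, ordered by compound and time, with diamonds for called changes and a different horizontal scale for each gene. Cyp26a1 has 6 diamonds, up to 4.03 at MDA day 14, while Rbp4 has none and stays between -0.33 and 0.20.

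Rbp4, the plasma retinol carrier, changed little under any compound. Its lowest group was MDA at day 14, where MDA livers measured 13.42, 13.35 and 13.59, against 13.81, 13.67 and 13.88 in corn oil livers. The groups did not overlap, and the change was -0.33 ± 0.06 (SE; the level in corn oil livers was 1.26-fold higher, adjusted p = 2.37e-05, when 2.87% of probe sets were lower on adjusted p alone). With the compared groups alone setting the spread, the adjusted p was 0.193. At day 7 MDA livers measured 13.53, 13.80 and 13.69, against 13.77, 13.84 and 13.90 in corn oil livers, and the change of -0.16 did not pass (adjusted p = 0.159). At days 1 and 3 the changes were 0.01 and -0.05.

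The fall of Rbp4 under MDA grew with time. Day 14 was below day 1 by 0.34 (difference -0.34, 95% interval -0.51 to -0.17, adjusted p = 0.0270). Among the last-minus-first differences of the 30 compounds, that of MDA alone passed for Rbp4, while MDA, CPA and Aap passed for Cyp26a1. At day 14 MDA livers were also below CPA livers (difference -0.25, adjusted p = 0.00247) and DCB livers (difference -0.40, adjusted p = 3.11e-07). None of these 3 differences passed with the compared groups alone setting the spread (adjusted p = 0.412, 0.250 and 0.105). Without animal 1 of each treated group, the day 14 difference to CPA was -0.16 (adjusted p = 0.348) and that between the days -0.31 (adjusted p = 0.273), and the difference between the days was also lost without treated animal 2 (-0.26) or without corn oil animals 1 (-0.32) or 3 (-0.29). The mean of 11 hepatocyte genes was lower as well, 13.64 to 13.67 in MDA livers and 13.81 to 13.90 in corn oil livers at day 14, and its part in the Rbp4 value was not tested. In whole liver, fewer cells of a type and less RNA per cell cannot be told apart.

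Other Rbp4 changes that passed on p were smaller still. CPA livers at day 3 measured 13.65, 13.49 and 13.74, against 13.89, 13.74 and 13.87 in corn oil livers (change -0.20, adjusted p = 0.0154), and the groups met at 13.74. Without CPA animal 2 the change was -0.13 (adjusted p = 0.235). The mean of the 11 hepatocyte genes was lower there too, 13.54 to 13.69 in CPA livers and 13.83 to 13.94 in corn oil livers, and its part was not tested. DES livers at day 3 measured 13.81, 13.57 and 13.56, against 13.87, 13.90, 13.86 and 13.82 in vehicle livers (change -0.22, adjusted p = 0.00350). On adjusted p alone, 5.43% and 5.39% of probe sets were lower in these CPA and DES groups. Under DHEA, a steroid precursor that acts as a peroxisome proliferator in rat liver, Rbp4 was higher at all 4 days, by 0.17, 0.16, 0.17 and 0.20 (adjusted p = 0.0385, 0.0177, 0.00739 and 0.00871), and every DHEA liver (13.88 to 14.12) lay above every vehicle liver of its day. Many genes moved under DHEA, and 8.05%, 10.0%, 13.3% and 10.0% of probe sets were higher on adjusted p alone at days 1, 3, 7 and 14. AA at day 3 (0.15, adjusted p = 0.0478) and CIDB at day 7 (0.18, adjusted p = 0.0258) made up the 6 higher groups, with 4.47% and 8.91% of probe sets higher on adjusted p alone. The DHEA and AA groups share the CMC_1D vehicle series, so their changes are not independent. At day 3 both were set against the same vehicle livers, which hold the lowest Rbp4 value of all vehicle arrays (13.60). Of the 9 Rbp4 changes that passed, 2 did so whichever numbered animal was left out, MDA at day 14 and DHEA at day 7. With compared groups alone setting the spread, 1 higher and 0 lower Rbp4 changes passed.

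Between 0 and 13 of the other measured genes of the pathway were called in each MDA, CPA and Aap group. A list of 65 further retinoid genes had 45 members on the array, of which 32 were called in at least 1 treated group and 13 in none. In MDA livers 0 of 45 were called at day 1, 2 higher and 1 lower at day 3, 1 higher and 2 lower at day 7, and 2 higher and 3 lower at day 14. On the whole array 0.429% of probe sets were higher and 0.158% lower at day 3, 0.366% and 0.328% at day 7, and 0.744% and 0.750% at day 14. The list's median change at day 14 was -0.01 against 0.00 for all probe sets. In CPA livers 1 gene was higher at each day and 5, 6, 1 and 4 were lower at days 1, 3, 7 and 14. Of all probe sets 1.99%, 1.12%, 0.517% and 0.548% were higher there, and 1.99%, 1.71%, 1.05% and 1.79% lower. In Aap livers 3 were higher and 5 lower at 6 hours (2.75% and 2.51% of all probe sets), 2 and 2 at 12 hours (0.8% and 1.12%), 4 and 9 at 24 hours (6.72% and 4.08%), and 4 and 8 at 48 hours (6.01% and 4.03%). Of these calls, 4 of 11 in MDA, 15 of 20 in CPA and 26 of 37 in Aap livers were also made whichever numbered animal was left out, and 3, 20 and 29 with the compared groups alone, settings added after the values were seen. The 45 genes include 13 listed as known to respond to retinoic acid. Of these 13, 0 were called higher in any MDA or CPA group, and 0 to 2 were lower. In Aap livers 1 was higher and 3 lower at 6 hours, and later 0 were higher and 2, 6 and 4 lower.

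Lrat, the enzyme that esterifies retinol for storage and that is itself raised by retinoic acid in liver, was called lower in each of the 6 groups in which Cyp26a1 was called higher. Of all probe sets, 0.328% and 0.750% were called lower in MDA livers at days 7 and 14. The share was 1.71%, 1.05% and 1.79% in CPA livers at days 3, 7 and 14, and 2.51% in Aap livers at 6 hours. Lrat is 1 of the 45 listed genes, and how many other probe sets were lower in all 6 groups was not counted. The MDA and CPA groups share their corn oil livers, and Lrat and Cyp26a1 were read from the same arrays. The median change of 17 stellate cell and fibroblast genes was -0.18, -0.42 and -0.30 in CPA livers at days 3, 7 and 14. It was -0.01 and -0.14 in MDA livers at days 7 and 14, and -0.02 in Aap livers at 6 hours. Medians near 0 do not mean that no member moved. Of these 17 stellate cell and fibroblast genes, 3, 4 and 5 were called lower in those CPA groups. In MDA livers 3 were lower and 1 higher at day 7 and again at day 14, and 2 were lower in Aap livers at 6 hours. The part of these cells in the Lrat values was not tested. At day 14 MDA livers measured 6.64, 6.09 and 6.84 for Lrat, against 7.80, 7.89 and 7.51 in corn oil livers (change -1.21, adjusted p = 7.48e-07). At day 7 the values were 5.69, 7.53 and 7.64 in MDA livers, against 7.84, 7.78 and 7.80 in corn oil livers (change -0.86, adjusted p = 0.00263). Only animal 1 was far below the controls at day 7, and without animal 1 of each treated group the change was -0.23 (adjusted p = 0.781). With the compared groups alone, neither MDA change of Lrat passed (adjusted p = 0.697 at day 7 and 0.0664 at day 14). Lrat was lower in CPA livers at all 4 days, 2.06-fold at day 1, when Cyp26a1 was not called, and 2.01-fold, 2.13-fold and 2.08-fold at days 3, 7 and 14. In Aap livers the change was -0.62 at 6 hours and -1.23, -1.30 and -1.05 at 12, 24 and 48 hours, when Cyp26a1 was not called. The call at 6 hours was lost without Aap animals 1 (-0.56) or 2 (-0.57) or without saline animal 1 (-0.48), and that at 12 hours with the compared groups alone (adjusted p = 0.0633). Over all 98 groups Lrat was called lower in 12, in 4 compounds (MDA, CPA, Aap and DHEA), and higher in 2, ETH and Nif at day 14.

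Around Lrat, further genes listed for ester storage and release were called in these groups. Dgat2, a listed gene whose main task is triglyceride synthesis, was lower in MDA livers at days 3, 7 and 14 (-0.76, -0.73 and -0.64). Without animal 1 of each treated group the Dgat2 change was -0.45 at day 7 (adjusted p = 0.108) and -0.45 at day 14, both under the fold minimum, and none of the 3 passed with the compared groups alone (adjusted p = 0.140 to 0.505). Lipc, the hepatic lipase, was lower in CPA livers at days 1, 3 and 14 (-0.72, -0.84 and -0.67), and Ces1d, a carboxylesterase, at days 1 and 3 (-0.74 and -0.65). The Ces1d call at day 1 was lost without corn oil animal 2 (-0.68), and that at day 3 without any 1 of 5 of the 6 animals (-0.73 to -0.50). Pnpla2, the lipase that opens triglyceride hydrolysis, was higher in Aap livers at 6 hours, by 2.27 (adjusted p = 2.07e-30). Lipc and Ces1d were lower in Aap livers at 48 hours too (-2.02 and -2.17), their lowest changes over the 98 groups. With the compared groups alone the Ces1d change there did not pass (adjusted p = 0.0995). Lipc and Ces1d were each called lower in 13 groups of 7 compounds, and Dgat2 in 8 groups of 6 (0.731% of all probe sets). Pnpla2 was called higher in 16 groups of 7 compounds (1.02% of all probe sets).

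Of the genes listed as enzymes that oxidise or reduce retinol and retinal, 10 of 18 were measured. Akr1b8, an aldo-keto reductase, was the only one of them called in MDA livers, higher at days 3, 7 and 14 (1.11, 0.77 and 0.81). Its call at day 3 held whichever animal was left out (0.72 without MDA animal 3), and those at days 7 and 14 were lost without MDA animal 2 (0.75 and 0.73) and without corn oil animals 2 or 3, and at day 7 also without corn oil animal 1. With the compared groups alone, days 3 and 7 did not pass (adjusted p = 0.18 and 0.24). None was called in CPA livers. In Aap livers at 6 hours Rdh16, a retinol dehydrogenase, measured 11.29, 12.29 and 11.55, against 9.84, 9.92 and 9.35 in saline livers (change 2.01, adjusted p = 2.52e-07). Dhrs3, which reduces retinal back to retinol, measured 9.18, 9.35 and 9.33 in Aap livers, against 10.95, 10.91 and 10.63 in saline livers (change -1.54, adjusted p = 7.97e-33). Rdh10, which makes retinal, was lower too (-0.77, adjusted p = 2.79e-07). Rdh16 was still higher at 12 hours (1.61), when Cyp26a1 was not called, though not with the compared groups alone (adjusted p = 0.0837). At 48 hours Rdh16 was lower (-1.97 to -1.49 with a numbered animal left out). Dhrs3 was still lower at 24 hours (-0.89 to -0.83 with a numbered animal left out).

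Aldh1a1, one of the enzymes that make retinoic acid from retinal, was higher in MDA livers at days 3 and 14 (1.90 and 2.63) and in CPA livers at all 4 days (2.17, 2.77, 2.05 and 3.05). The MDA call at day 3 was lost without MDA animal 2 (1.79, adjusted p = 0.173) or corn oil animal 1 (1.77, adjusted p = 0.0813). It was called higher in 51 of 98 groups and in 20 compounds, most of them without a Cyp26a1 call. Its sister Aldh1a2 was called in none. Cyp26b1, the second retinoic acid hydroxylase and the only other one measured, was called in no group. Its highest change was 0.23, in MDA livers at day 14 (adjusted p = 0.0943).

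All 8 listed retinoid receptors and their relatives were measured, and none was called in any MDA group. Rarb changed by 0.39 in MDA livers at day 14 (adjusted p = 0.436), and Rara by -0.01. In CPA livers Nr2f2, an orphan receptor that binds similar repeats, was lower at day 3 (-0.76), and in Aap livers at 6 hours (-0.82, and -0.56, under the fold minimum, without saline animal 1). Ttr, the partner of RBP4 in plasma, was called in none of the 98 groups, with changes between -0.28 and 0.13. Fabp5, a fatty acid carrier that also binds retinoic acid, was lower in MDA livers at day 14 (-1.29, adjusted p = 0.0490, a call lost without any 1 of the MDA animals or without corn oil animals 2 or 3) and in CPA livers at days 1, 3 and 14 (-1.99, -2.32 and -2.03).

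**Figure D4:**
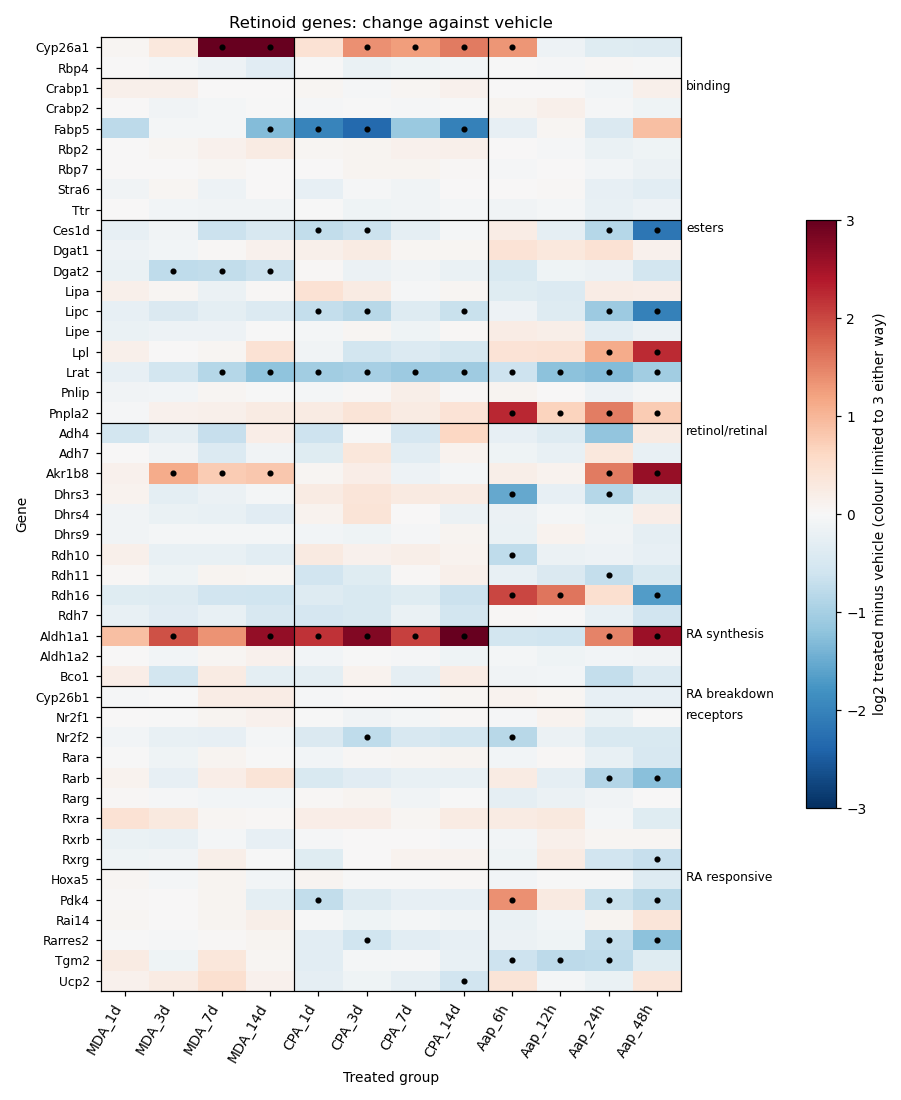
Change against vehicle (log2, colour limited to 3 in either direction) of Cyp26a1, Rbp4 and 45 further retinoid genes in the MDA, CPA and Aap groups, with dots for called changes. The Cyp26a1 row is called in 6 of the 12 columns, the Lrat row in 10 (all lower), and the Rbp4 and Cyp26b1 rows in 0.

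The wide range of Cyp26a1 among MDA livers was set beside other genes of the same animals. At day 7, animal 1 had the highest Cyp26a1 value (11.76) of all 421 arrays, with the lowest Lrat (5.69) and the lowest Rbp4 (13.53) of its group. In the same animal Epcam, a marker of bile duct cells, measured 9.94, against 7.80 and 7.82 in the other 2 MDA livers, and the mean of 10 bile duct genes was 7.42 against 6.76 and 6.76. At day 14 the MDA livers with Cyp26a1 at 10.72, 10.24 and 9.09 had Epcam at 10.08, 9.96 and 8.16 and bile duct means of 7.73, 7.33 and 6.78.

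The 3 MDA livers above 10 for Cyp26a1, a cut chosen after the values were seen, had bile duct means of 7.33 to 7.73. The other 3 of days 7 and 14 had 6.76 to 6.78. At day 3, MDA livers with Cyp26a1 at 6.39, 6.22 and 6.52 had Epcam at 8.16, 8.85 and 8.80. Their bile duct means were 6.79, 7.12 and 6.90, against 6.70 to 6.77 in corn oil livers. CPA livers at day 14 with Cyp26a1 at 7.89, 7.36 and 7.40 had Epcam at 8.28, 8.55 and 9.24. Of the 10 bile duct genes, 3 were called higher in MDA livers at day 14, Epcam (1.63), Anxa4 (0.81) and Tspan8 (0.77), and 0 at day 7. On the whole array 0.744% of probe sets were called higher at day 14 and 0.366% at day 7. Without MDA animal 1 the calls of Anxa4 (0.57) and Tspan8 (0.26) were lost, and with the compared groups alone none of the 3 passed (adjusted p = 0.201 to 0.431). The list's mean ranged between 6.78 and 7.73 in MDA livers and between 6.70 and 6.84 in corn oil livers at day 14. MDA animal 3 of day 14 had a bile duct mean inside the corn oil range (6.78) and Cyp26a1 at 9.09. Ecm1, a matrix protein made by stellate cells, fell in MDA livers at days 7 and 14 (-1.42 and -1.52) and was lowest in the animal with the highest Cyp26a1 (8.68), and Reln, a further stellate cell gene, fell too (-0.70 and -1.40). Without MDA animal 1 the day 7 change of Reln was -0.32 (adjusted p = 0.507) and that of Ecm1 -1.07. Both genes were named for their low r to Cyp26a1 over all groups, so a fall where Cyp26a1 was high was built into the choice. Of 17 stellate cell and fibroblast genes 1 was higher and 3 were lower at day 7, and again at day 14. On the whole array 0.328% of probe sets were called lower at day 7 and 0.750% at day 14. The list means at day 7 were 7.79 to 7.86 in MDA livers and 7.82 to 7.97 in corn oil livers. At day 14 they were 7.53 to 7.85 in MDA livers and 7.79 to 8.00 in corn oil livers. The mean of 9 macrophage genes was 9.60 to 9.80 in MDA livers at day 7, against 9.14 to 9.36 in corn oil livers, with 1 of 9 called higher, and 9.06 to 9.78 against 9.17 to 9.71 at day 14. The hepatocyte mean at day 7 was 13.61 to 13.73 in MDA livers, against 13.81 to 13.88 in corn oil livers, with 1 of 11 called lower. The part of these cell types in the Cyp26a1 values was not tested.

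The same lists were read in CPA livers. The mean of the 9 macrophage genes was 8.38 to 8.83 in CPA livers at day 14, against 9.17 to 9.71 in corn oil livers. Of these genes 7 of 9 were lower, where 1.79% of all probe sets were. Of the stellate cell and fibroblast genes 5 of 17 were lower, with list means of 7.38 to 7.53 in CPA livers and 7.79 to 8.00 in corn oil livers. The bile duct mean was 6.87 to 6.91 in CPA livers, against 6.70 to 6.84, and the hepatocyte mean was 13.68 to 13.80, against 13.81 to 13.90. Their part in the CPA values was not tested either.

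**Figure D5:**
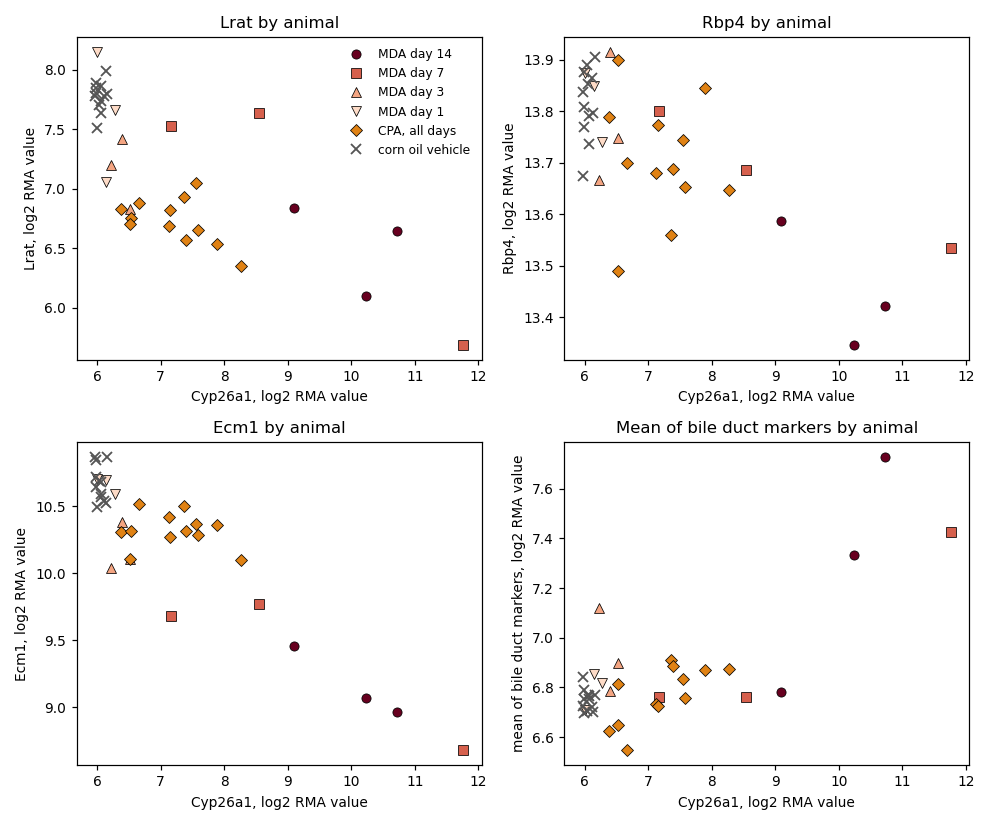
Lrat, Rbp4, Ecm1 and the mean of 10 bile duct genes (vertical axes, log2 RMA values) against Cyp26a1 (horizontal axis, log2 RMA value) in single livers under MDA by day, CPA and corn oil, 1 point per animal. The MDA liver at 11.76 has the lowest Lrat (5.69) and Ecm1 (8.68), and the MDA livers above 10 have bile duct means between 7.33 and 7.73.

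Over the 98 treated groups the changes of Cyp26a1 and Rbp4 gave a Pearson's r of -0.54 and a Spearman's rho of -0.43. These points share vehicle arrays, within which the 2 genes' deviations from their group means gave r = -0.29 over 128 arrays. Both changes of a group subtract the same vehicle livers, and the part of this in r was not tested. The points also include up to 4 times of the same compound. With the last time of each of the 30 compounds r was -0.60, and without the MDA groups it was -0.38. By Pearson's r over all groups Cyp26a1 was lowest for Rbp4 of all named probe sets. It was not without the MDA groups or by rho, where Adcyap1r1 (-0.50 both ways) and Zdhhc8 (-0.46 without MDA, rho -0.45) were lower. Within groups, the deviations of single treated arrays from their group mean gave r = -0.15 over 293 arrays and 0.02 over the 281 without MDA.

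The genes whose changes over the 98 groups were most like those of Cyp26a1 were Tsx (r = 0.78), Bok (0.61), a BCL2 family member, Relb (0.59), an NF-kappaB subunit, Psen2 (0.58), a presenilin, and Tmem237 (0.58). The least alike were Ecm1 (-0.64), Reln (-0.57) and Exosc9 (-0.57), a subunit of the RNA exosome. Without the MDA groups r was 0.31 for Tsx, 0.41 for Bok, 0.21 for Relb, 0.45 for Psen2, 0.47 for Tmem237, -0.21 for Ecm1, -0.39 for Reln and -0.59 for Exosc9. Tsx rose by 2.71 in MDA livers at day 14. Most like Rbp4 were Glud1 (0.58), the mitochondrial glutamate dehydrogenase, Alb (0.54), the albumin gene, Csnk1a1 (0.52), C1qtnf1 (0.52) and Acot12 (0.52), and the least alike besides Cyp26a1 were Adcyap1r1 (-0.52) and Zdhhc8 (-0.52).

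Both genes lie on rat chromosome 1, with 4 annotated protein-coding genes between them (Rps12l6, Myof, Cep55 and Ffar4), of which only Myof was measured by a probe set of its own. Myof, a membrane repair protein, changed by 0.41 in MDA livers at day 7 and by 0.24 at day 14, where Cyp26a1 changed by 3.12 and 4.03 and Rbp4 by -0.16 and -0.33.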

How the data were processed

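Liver RNA of 421 animals was hybridised to Affymetrix RAE230A arrays. The authors deposited RMA values on the log2 scale (affy package, version not given in the sources used here; images converted with MAS 5.0), for 15866 probe sets with no missing values, and these were used as deposited. Of these, 12783 probe sets had 1 gene symbol in the platform annotation, 312 several and 2771 none here.

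Each treated group was compared with the vehicle group its label names, using limma 3.58.1 in R 4.3.3 with 1 mean per group over all arrays (285 residual degrees of freedom), moderated variances and Benjamini-Hochberg adjustment over all probe sets. A call required an adjusted p below 0.05 and 1.5-fold. Arrays give no read depth, and their number limits the precision. The code was tested on simulated data. Named genes were the 2 members, the listed retinoid genes, and the 5 probe sets with the highest and 3 with the lowest r to each member. Marker genes came from written lists, and 7 arrays carried transcripts of another tissue. The members, the lists and the compounds described were chosen with earlier results of these data known. Alternatives covered normalisation, filters, fold minimum, fitted arrays, left-out animals and a replicate block.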

Additional observations from a re-analysis of the deposited data

Results flagged for a closer look

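Among 12 groups of 4 to 10 livers (6 for each gene), 1 held a liver far from the others: Cyp26a1 in the vehicle group CMC_1D at day 7, where the gap of the highest liver to its neighbour was 0.637 of the whole range. Chance gives this in about 1 of 20 groups.

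Of 82 differences between days or between compounds that were tested, 12 passed (limma, adjusted p below 0.05). For Cyp26a1 these were day 7 minus day 3 of MDA (2.81), the last minus the first time of MDA (3.97), CPA (1.12) and Aap (-1.72), MDA minus CPA at days 3, 7 and 14 (-1.07, 1.87 and 2.47), and MDA minus DCB at days 7 and 14 (2.90 and 3.40). For Rbp4 they were day 14 minus day 1 of MDA (-0.34), MDA minus CPA at day 14 (-0.25) and MDA minus DCB at day 14 (-0.40). MDA, CPA and DCB share their corn oil animals and were given at different doses.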

How the results depend on the processing

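Over 167 results and 1588 alternative values no change that passed turned its sign. Cyp26a1 was called higher in 5 to 8 groups. The 8 belongs to the fit without the MDA arrays and still counts the MDA calls at days 7 and 14 of the main fit. Its count lower on adjusted p, 0 here, was 0 to 2 with a numbered animal left out (2 without treated animal 1), 2 without the MDA arrays and 5 with the compared groups alone. Rbp4 had 0 calls, and without the fold minimum 6 higher and 3 lower. Its 6 higher on p became 1 to 6 with an animal left out and 1 with compared groups alone. Its 3 lower became 1 under quantile normalisation, 2 to 5 with an animal left out, 6 against all vehicle groups of a code and 0 with compared groups alone.

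Among the results that lost their p with compared groups alone, at the same value, were Cyp26a1 at MDA day 7 (3.12), CPA day 3 (1.38), MDA day 7 minus day 3 (2.81), MDA minus CPA at days 3 and 7 (-1.07 and 1.87) and MDA minus DCB at day 7 (2.90), and Rbp4 at MDA day 14 (-0.33), MDA minus CPA (-0.25) and DCB (-0.40) at day 14, and MDA day 14 minus day 1 (-0.34). Rbp4 at MDA day 7 was -0.14 against all vehicle groups of its code (adjusted p = 0.0496). With an animal left out, ranges were -0.23 to -0.094 for Rbp4 at MDA day 7, -0.32 to -0.16 for MDA minus CPA at day 14 and -0.45 to -0.26 for MDA day 14 minus day 1. For Cyp26a1 they were 1.82 to 4.11 at MDA day 7, 3.68 to 4.49 at day 14 and -0.19 to 1.86 for day 14 minus day 7. The causes were not tested.

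Numbers shared by treated and vehicle animals did not pair them (mean correlation of deviations 0.0131 over 293 pairs, every pair above 0.1 in 4 of 98 groups). With a replicate block Cyp26a1 had 6 calls (MDA day 14, 4.03), and Rbp4 passed on p in 7 groups higher and 4 lower. Vehicle values near the signal of genes not used limit what can be said of a fall in Cyp26a1.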

Other observations

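Away from Cyp26a1 and Rbp4, the largest change in the retinoid list was that of Rbp7, an intracellular retinol carrier, under DES. DES livers at day 3 measured 10.30, 9.66 and 9.28, against 4.69, 4.75, 4.73 and 4.65 in vehicle livers, and at day 1, with 2 DES arrays, the change was 5.20 (adjusted p = 1.57e-109). In the same DES livers Rarb measured 10.62, 10.54 and 10.27 at day 3, against 9.90, 9.35, 9.62 and 9.71 in vehicle livers, with a change of 1.41 at day 1 (adjusted p = 1.25e-05; 2.33% of probe sets were called higher there). The Cyp26a1 difference under DES was 0.26 at day 1 (adjusted p = 0.567) and 0.12 at day 3 (adjusted p = 0.828), neither of which passed the test.

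DHEA, the compound with Rbp4 higher at all 4 days, also had the highest changes of the list for Lpl (2.82), Pdk4 (3.25) and Adh4 (2.13), all at day 7, and at day 14 9 of 45 retinoid genes were called higher, where 2.29% of all probe sets were. Such counts were not particular to DHEA. In livers given Wy, another peroxisome proliferator, 7 of 45 were called higher at day 1 and 9 of 45 at day 3. Of all probe sets 2.42% and 2.44% were higher there, and Rbp4 was not among those that passed.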
